A study of Mus musculus with 6 samples.

Results

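The genes described are those that encode oxidative phosphorylation, the mitochondrial machinery that turns nutrients into ATP, grouped by complex and by the genome that carries them. Members were protein-coding mouse genes taken by symbol: the Nduf, Sdh, Uqcr, Cox4 to Cox8 and Atp5 families, Cyc1, and the 13 coding genes of mitochondrial DNA. Of 54838 gene identifiers in the files, 108 met the symbol rule and 103 also reached at least 10 counts in 3 or more of the 6 libraries. The 103 comprised 91 nuclear and 12 mitochondrially encoded genes. RNA came from glomeruli, the tufts of capillaries where the kidney filters blood, isolated from 3-week-old mice. There were 3 libraries labelled CTRL, genotype wild type (animals 157, 162 and 163), and 3 labelled KO, genotype bPIX -/- (animals 146, 147 and 148). The series title limits the loss of bPIX, the product of Arhgef7, to podocytes, the epithelial cells that wrap the glomerular capillaries. Neither the promoter behind the deletion nor any allele shared by the groups is stated in the sources used here. Groups follow the sample labels. All 6 deposited file names give the opposite group, and if those were right every direction given here would be reversed.

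Respiratory complexes I and II pass electrons from NADH and succinate to coenzyme Q, complex III passes them on to cytochrome c, and complex IV hands them to oxygen. Complexes I, III and IV pump protons across the inner membrane, and complex V, the ATP synthase, lets them flow back to make ATP. Complex II is built from nuclear genes alone, whereas the other complexes mix nuclear subunits with a core read from mitochondrial DNA, so that both genomes have to be expressed together. In the kidney the proximal tubule is packed with mitochondria, and podocytes and other glomerular cells have far fewer.

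Gene counts ranged from 39841396 to 51917945 per library, with KO 146 the deepest. Expression is given as CPM, counts scaled to a common library size by TMM, a normalisation that sets a typical gene equal across libraries. Arhgef7, the targeted gene, stood at 91.9, 94.1 and 88.4 CPM in the CTRL libraries and at 133, 89.6 and 85.9 CPM in KO 146, 147 and 148, so its level did not separate the groups. Whether a whole-gene count of glomerular tissue would show a deletion made in podocytes alone was not tested. Arhgef7 was highest in KO 146, so its level gives the sample labels no support over the file names. Differences were tested with edgeR's quasi-likelihood test across 17086 genes with Benjamini-Hochberg adjustment, and a gene was called at an adjusted p below 0.05. Each library came from a different animal number, and p-values measure the spread between these animals only. In bulk tissue, fewer cells of a type and less RNA per cell cannot be told apart.

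Marker lists of kidney cell types had different levels in the groups, and KO 146 stood furthest from the CTRL libraries. The 23 proximal tubule markers summed to 36778, 35920 and 36454 CPM in the CTRL libraries and to 16687, 25548 and 28512 CPM in KO 146, 147 and 148. Of these 23, 22 had lower values in the KO group, with a median log2 fold change of -0.55. edgeR called 1 of them, the amino acid transporter Slc7a13, where it called 1.01% of all genes. At an unadjusted p below 0.05, 15 were lower, where 11.8% of all genes were. DESeq2 called 13 lower, where it called 5.06% of all genes lower, and limma-voom called 1. The 19 tested markers of later nephron segments, from the loop to the collecting duct, had a median of -0.42. In the other direction, the 25 podocyte markers summed to between 2457 and 2799 CPM in the CTRL libraries and to 12287, 5838 and 4291 CPM in KO 146, 147 and 148. The 20 endothelial markers and the 20 mesangial, pericyte and smooth muscle markers had medians of 1.74 and 1.69. edgeR called 0 of the podocyte, endothelial and mesangial markers. At an unadjusted p below 0.05, 23, 20 and 18 of them were higher, where 17.5% of all genes were. DESeq2 called 19, 20 and 14 of them higher, where it called 11.3% of all genes higher, and limma-voom called 0. It also called 1 marker of the mesangial list lower with DESeq2. The parietal epithelial, leukocyte and erythroid lists had medians of -0.20, -0.04 and -0.20. No marker in these lists was at 0 counts in all libraries. The podocyte list was thus lowest in the CTRL libraries, intermediate in KO 147 and KO 148 and highest in KO 146, and the proximal tubule list ran in the opposite order. These values stand beside every difference below, and their part in it was not tested except where a fit with a marker level as covariate is named.

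The mitochondrially encoded members are described first because 6 of the 13 could barely be counted. In genome order mt-Co2, mt-Atp8, mt-Atp6, mt-Co3, mt-Nd3 and mt-Nd4l form an unbroken stretch of coding genes from chrM:7013-7696 (mt-Co2) to chrM:9877-10173 (mt-Nd4l), and each was counted between 1 and 226 times per library. The other 7, mt-Nd1, mt-Nd2, mt-Co1, mt-Nd4, mt-Nd5, mt-Nd6 and mt-Cytb, were counted between 130885 and 2976958 times. Nuclear DNA carries copies of mitochondrial genes, and the files hold only reads that were assigned to 1 gene: between 22.5% (KO 146) and 29.6% (KO 148) of counted records were set aside as aligning to more than 1 place. Each member's annotated transcript was cut into all runs of 50 bases, and the share of runs also found in the transcript of another gene was recorded. It was 100% for mt-Co2, 99.9% for mt-Co3, 99.5% for mt-Atp6, 98.8% for mt-Nd4l and 98.0% for mt-Nd3. Among the well-counted genes it was 62.2% for mt-Nd4, 51.1% for mt-Co1, 8.19% for mt-Nd2, 7.61% for mt-Nd5 and 0% for mt-Nd1, mt-Nd6 and mt-Cytb. mt-Atp8 also had a share of 0% and yet a count of 2 to 12, so sharing with annotated transcripts did not mark every gene of the stretch. How much of the low count comes from discarded reads was not tested.

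Several annotated copies are unprocessed pseudogenes on the minus strand of nuclear chromosome 1, lying side by side in GRCm38. They include Gm28661 (a copy of mt-Co2, chr1:24614885-24615565), Gm10925 (mt-Atp6, chr1:24613974-24614651), Gm28437 (mt-Co3, chr1:24613189-24613971), Gm28438 (mt-Nd3, chr1:24612775-24613119) and Gm10222 (mt-Nd4l, chr1:24612407-24612700). The same cluster holds Gm29216 (chr1:24615706-24616197) and Gm28439 (chr1:24611535-24612410), which share runs with the well-counted genes mt-Co1 and mt-Nd4. Over 783 aligned bases mt-Co3 and Gm28437 had 0 differences. By contrast, mt-Nd2 and its partial copy Gm13339 on chromosome 2 (chr2:22590024-22590533) differed at 17 of 510 aligned bases, an identity of 96.7%. The pairs below show the first 80 bases of mt-Co3 and bases 529 to 608 of mt-Nd2, read 5′ to 3′ from GENCODE M21 transcripts. They are shown because a read within the first pair matches both genes letter for letter, whereas a read that spans a capital in the second pair matches only 1 of them. Capitals mark the bases that differ within a pair.
mt-Co3: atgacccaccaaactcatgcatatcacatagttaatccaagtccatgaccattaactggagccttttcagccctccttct
Gm28437: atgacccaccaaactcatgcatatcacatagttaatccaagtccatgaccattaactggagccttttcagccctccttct
mt-Nd2: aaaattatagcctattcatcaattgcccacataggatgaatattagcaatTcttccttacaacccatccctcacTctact
Gm13339: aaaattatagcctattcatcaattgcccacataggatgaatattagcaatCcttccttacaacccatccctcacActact
The copy Gm28437 was itself counted 525, 612 and 556 times in the CTRL libraries and 490, 630 and 955 times in KO 146, 147 and 148, more often than mt-Co3 in every library.

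The count minimum of the membership rule passed through this stretch. mt-Atp8, a small subunit of the ATP synthase membrane part, was just inside, with 10, 5 and 2 counts in the CTRL libraries and 7, 12 and 11 in KO 146, 147 and 148. mt-Nd4l, a membrane subunit of complex I, was just outside, with 3, 4 and 2 counts and 6, 1 and 3 counts. The other 4 identifiers left out were Cox7b2 (at most 2 counts in a library), Cox8b (at most 5), Cox8c (0 in every library) and a second identifier of Atp5o (0 in every library), a read-through gene model. Cox7b2, Cox8b and Cox8c are known as isoforms of testis or muscle.

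**Figure D1:**
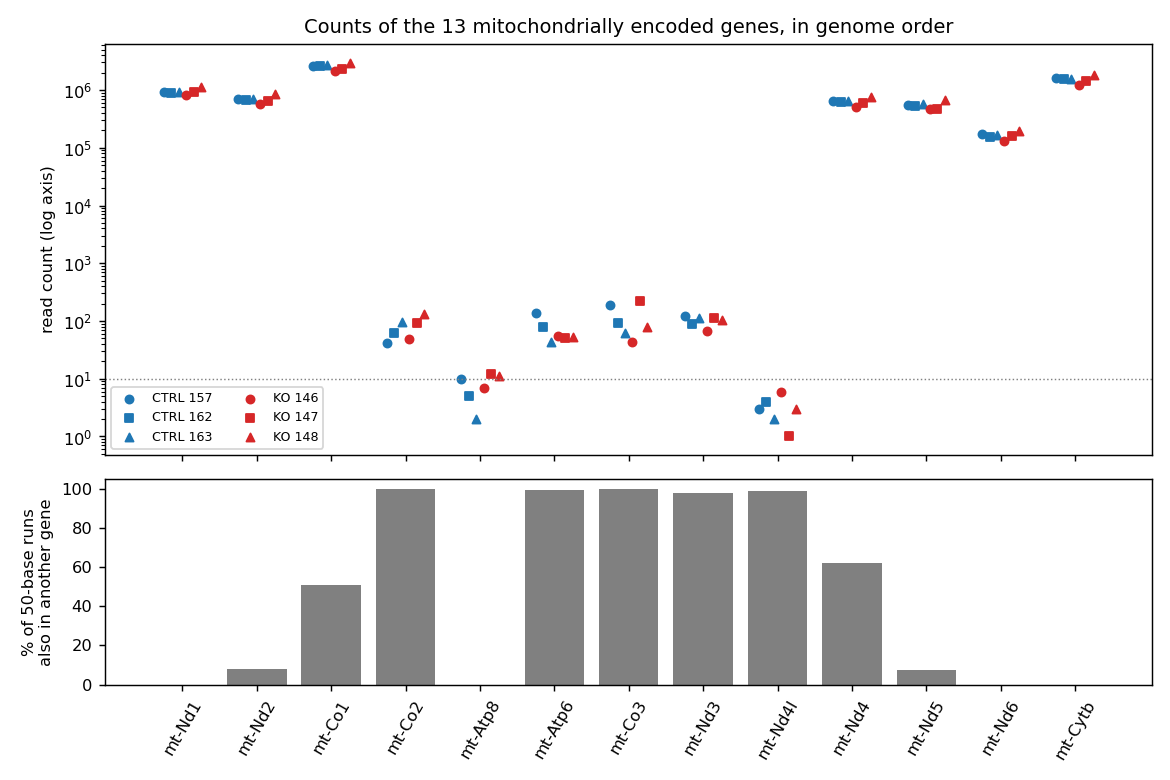
Read counts of the 13 mitochondrially encoded genes in genome order (top, log axis, 1 point per library, blue CTRL and red KO, the dotted line at 10 counts) and the percent of 50-base runs of each transcript that also occur in another gene's transcript (bottom). The 6 neighbours from mt-Co2 to mt-Nd4l lie at 226 counts or fewer, while the remaining 7 lie at 130885 or more.

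The 7 well-counted mitochondrial genes had lower values in KO 146 than in any other library and similar values elsewhere. mt-Co1, which carries the heme and copper centre where complex IV reduces oxygen, stood at 60005, 67178 and 60741 CPM in the CTRL libraries and at 36250, 55777 and 65506 CPM in KO 146, 147 and 148. Within the KO group KO 146 was far below the others, and KO 148 lay inside the CTRL range. Its log2 fold change of -0.25 (SE 0.29) did not pass the edgeR test (adjusted p = 0.587). mt-Cytb, the heme-bearing core of complex III, went from 37442, 40229 and 35666 CPM to 21084, 34168 and 40191 CPM (-0.25, SE 0.29, adjusted p = 0.595 with edgeR). The complex I membrane subunits mt-Nd1, mt-Nd2, mt-Nd4 and mt-Nd5 had log2 fold changes of -0.11, -0.17, -0.19 and -0.21. mt-Nd6, the only one of the coding genes transcribed from the opposite strand, had -0.19, so its value fell within the range of its neighbours. edgeR called 0 of the 12 kept mitochondrial genes, and 0 had an unadjusted p below 0.05. DESeq2 and limma-voom also called 0. For the 5 kept genes of the stretch the counts were too few and too ambiguous for a direction to be read, with log2 fold changes from -0.90 (mt-Atp6) to 0.62 (mt-Atp8).

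As a share of all gene counts, mitochondrially encoded transcripts of every kind made up 17.1% ± 0.938 in the CTRL group and 16.1% ± 3.76 in the KO group (SD, n = 3 each). KO 146 held 11.9%, below every CTRL library, and KO 148 held 19.2%, above every one of them, so the groups overlapped. An exact two-sided permutation test gave p = 0.9, where 0.1 is the smallest p that 3 against 3 libraries allow. The 7 well-counted genes summed to 5.93, 6.82 and 5.58 times the nuclear members' summed CPM in the CTRL libraries and to 5.26, 5.97 and 6.73 times in KO 146, 147 and 148. In counted reads the balance between the genomes thus ranged as widely within each group as between them. Reads aligned to more than 1 place are missing from these shares and sums. Of the 7 genes, mt-Nd4 and mt-Co1 shared 62.2% and 51.1% of their 50-base runs, and what this takes from their counts was not tested. Per kilobase of transcript, the most abundant mitochondrial messages stood far above the nuclear ones: mt-Co1 averaged 40544 and mt-Cytb 33024 CPM per kilobase in the CTRL group, against 917 for Cox8a, the highest of the nuclear members.

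Sharing of sequence was slight for most nuclear members: the median share of 50-base runs also found in another gene's transcript was 1.02%, 39 of 91 shared none, and 20 shared at least 10%. Ndufaf2, a complex I assembly factor, had the highest share at 64.1%, mostly with an antisense transcript. Atp5o, a stalk subunit of complex V, shared 41.6%, mostly with antisense transcripts, and Atp5g2 shared 38.4% with pseudogenes, so the counts of these 3 are uncertain. For Ndufa4l2, Cox4i2, Cox6b2, Atp5s, Sdha and Ndufaf4, to which the results below return, it was 0%.

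The nuclear members showed the same outline as the mitochondrial genes. Over the 91 nuclear members, the median log2 ratio to the mean of the CTRL libraries was -0.54 in KO 146, -0.04 in KO 147 and -0.00 in KO 148. For the 7 mitochondrial genes these medians were -0.80, -0.08 and 0.15. KO 146 was the library with the lowest value for 98 of the 103 members, against 36.8% of all tested genes. The difference between groups therefore rested largely on 1 animal, and the remaining KO libraries were close to the CTRL ones. The summed CPM of the nuclear members was 28092, 26874 and 29376 in the CTRL libraries and 18952, 26352 and 27589 in KO 146, 147 and 148, with the KO and CTRL ranges overlapping.

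**Figure D2:**
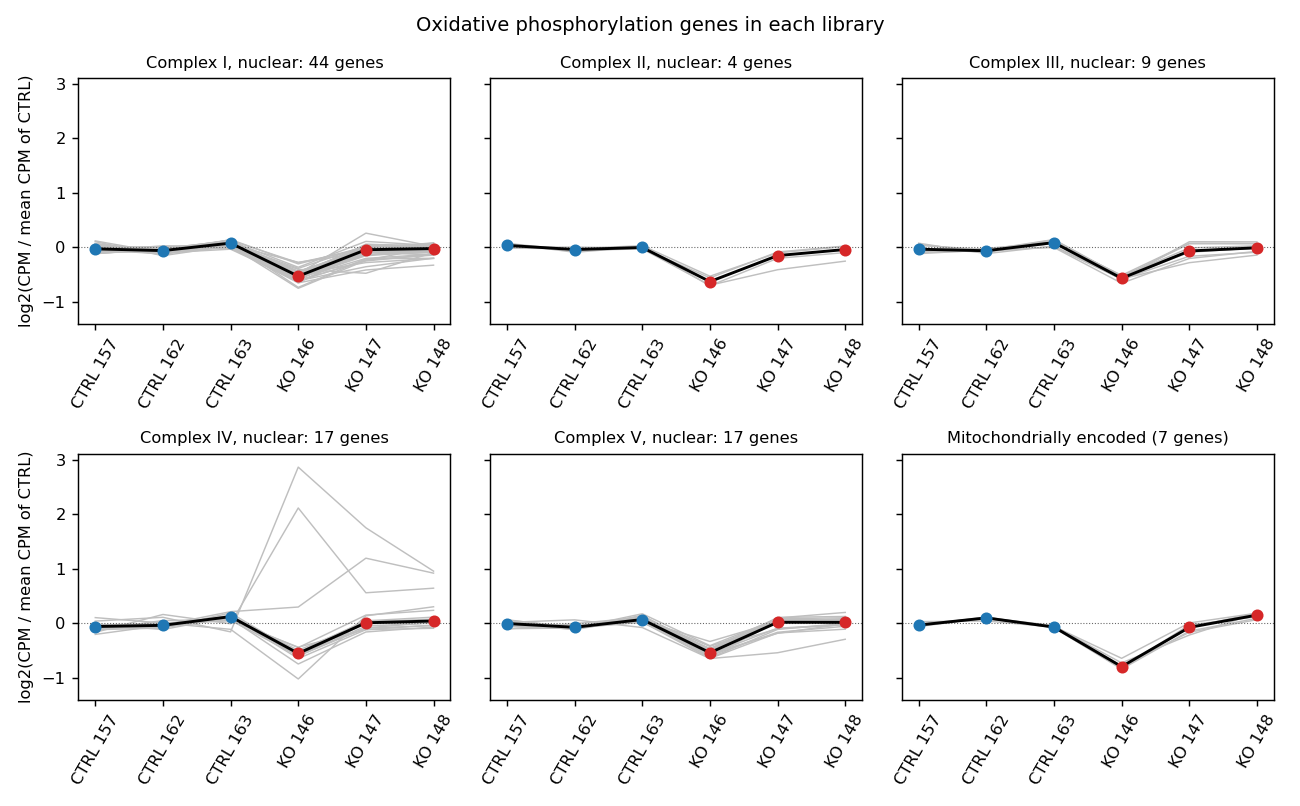
Each grey line is 1 gene, plotted as log2 of its CPM over the mean CPM of the CTRL libraries, with the median of each set in black and its points coloured by group (blue CTRL, red KO). In all 6 panels the median is lowest in KO 146 (-0.54 over all nuclear members and -0.80 over the 7 mitochondrial genes), and the lines rising above the rest in complex IV are Ndufa4l2, Cox4i2 and Cox6b2.

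No member was called. With edgeR, 0 of 103 members had an adjusted p below 0.05, where 1.01% of all tested genes did. At an unadjusted p below 0.05 there were 3 members with higher and 6 with lower values in the KO group, against 17.5% and 11.8% of all genes, which is below the background in both directions. DESeq2 called 6 members where it called 16.4% of all genes: 3 were higher, where 11.3% of all genes were, and 3 were lower, where 5.06% were. limma-voom called 0, where it called 0.796% of all genes. Without a count filter edgeR called 2 members, where it called 2.72% of all genes. With other scalings, another filter or the non-robust fit it called 0, where it called 0.96% (library totals) to 1.05% (non-robust) of all genes. Leaving out CTRL 157, CTRL 162, CTRL 163 or KO 147 also gave 0 called members, where 0.0114%, 0.0171%, 0.0569% and 0.0115% of all genes were called. Leaving out KO 146 or KO 148 gave 5 and 4 members, where 17.2% and 18.3% of all genes were called. Values were lower in the KO group for 97 of 103 members, against 50.7% of all tested genes, and the members' median log2 fold change was -0.18 against -0.01 over all genes. CPM ranges did not overlap between groups for 23 members: 20 lay lower in the KO group, where 19.6% of all genes did, and 3 lay higher, where 21.9% did. The share of separated members on the lower side was close to that of genes at large. Library totals in place of TMM moved the median of all genes to 0.13 and that of the members to -0.06, and 23 of 103 members then changed sign. Without KO 146, 61 members had lower and 42 had higher values, and the members' median was -0.03.

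Complex I has nuclear subunits for its NADH-binding arm, its quinone site and much of its membrane arm, and all 44 of its nuclear members, among them 8 Ndufaf assembly factors, had lower values in the KO group with TMM scaling. With library totals 36 of the 44 did, and without KO 146, 32 did. Their median log2 fold change was -0.18, running from -0.46 (Ndufaf7) to -0.03. edgeR called 0, where it called 1.01% of all genes. At an unadjusted p below 0.05, 4 were lower, where 11.8% of all genes were. Ndufaf7, a methyltransferase that acts in complex I assembly (chr17:78937136-78948052, plus strand), had 39.0, 38.9 and 38.7 CPM in the CTRL libraries and 24.8, 29.2 and 31.1 CPM in KO 146, 147 and 148. All 3 KO libraries lay below all CTRL libraries, which themselves were nearly identical (38.9 ± 0.161 against 28.4 ± 3.21 CPM, SD, n = 3 each). The log2 fold change was -0.46 (SE 0.10), short of the threshold with edgeR at an adjusted p of 0.0753. Unlike most members, Ndufaf7 differed without KO 146 as well. Its log2 fold change was then -0.37 and edgeR called it (adjusted p = 0.00709), in a fit that called 17.2% of all genes. The proximal tubule markers were also lower in that fit, with a median of -0.38. With their mean level as a covariate in all libraries, Ndufaf7 had -0.20 and was not called (edgeR adjusted p = 0.328). The summed level of these markers did not overlap between the groups. This fit, and every later value with that covariate, is therefore confounded with group.

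Ndufaf4, an assembly factor of the matrix arm, was the other complex I gene picked by smallest p. It had 62.2, 54.5 and 61.5 CPM in the CTRL libraries and 42.4, 49.0 and 51.7 CPM in KO 146, 147 and 148, with no overlap (-0.32, SE 0.10, edgeR adjusted p = 0.106). Ndufs1, the largest iron-sulfur subunit of the NADH-binding arm, ranged from 270 to 314 CPM in the CTRL libraries and from 190 to 252 CPM in the KO libraries (-0.38, SE 0.13, adjusted p = 0.123 with edgeR). It had the lowest log2 fold change of the 36 nuclear subunits of the complex. In all, 11 of the 44 lay lower without overlap, where 19.6% of all genes did, among them Ndufv1, which binds NADH and flavin, the iron-sulfur subunit Ndufs7, and Ndufs3. Per kilobase the most abundant were the small membrane subunit Ndufa1 and the accessory subunit Ndufb9, at 360 and 311 CPM per kilobase in the CTRL group. Their log2 fold changes were -0.29 (adjusted p = 0.328 with edgeR) and -0.20 (0.491), and their groups overlapped.

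Complex II, which also serves the tricarboxylic acid cycle as succinate dehydrogenase, had the lowest median of the complexes at -0.25 over its 4 genes, all with lower values whether scaled by TMM or by library totals and with or without KO 146. Sdha, the flavoprotein that oxidises succinate (chr13:74322254-74350280, minus strand), had 983, 900 and 917 CPM in the CTRL libraries and 578, 703 and 784 CPM in KO 146, 147 and 148. Every KO library lay below every CTRL library (933 ± 44.2 against 688 ± 104 CPM, SD, n = 3 each). The log2 fold change of -0.44 (SE 0.14) did not pass the edgeR test (adjusted p = 0.107), whereas DESeq2 called it (adjusted p = 0.0291). DESeq2 called 5.06% of all genes lower, and limma-voom did not call Sdha (adjusted p = 0.122). Sdhb, the iron-sulfur subunit, had 392, 351 and 376 CPM against 229, 325 and 350 CPM, groups that came close to touching (-0.31, SE 0.17, edgeR adjusted p = 0.268). The membrane anchors Sdhc and Sdhd each had a log2 fold change of -0.18 (adjusted p = 0.477 and 0.446 with edgeR), and in neither did KO 148 lie below the CTRL libraries. The catalytic subunits were thus separated between groups and the anchors were not, and a test between the subunits was not run. Without KO 146 the median of the 4 genes was -0.10, and edgeR then called Sdha alone among them (-0.33, adjusted p = 0.024). That fit called 6.62% of all genes lower. With the mean proximal tubule marker level as a covariate in all libraries, Sdha had -0.10 and was not called (edgeR adjusted p = 0.678).

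The 9 nuclear genes of complex III all had lower values with TMM scaling (6 with library totals, 5 without KO 146), with a median of -0.18 and 0 called or at an unadjusted p below 0.05 with edgeR. Uqcrc2, a core subunit of the matrix side that shares 17.6% of its 50-base runs with the opposite-strand gene Pdzd9, had 469, 411 and 453 CPM in the CTRL libraries and 298, 366 and 404 CPM in KO 146, 147 and 148 (-0.32, SE 0.14, edgeR adjusted p = 0.179). Uqcrfs1, the Rieske iron-sulfur protein, had 522, 495 and 509 CPM against 323, 442 and 485 CPM (-0.29, SE 0.16, edgeR adjusted p = 0.278). In both, KO 148 lay just under the lowest CTRL library and KO 146 far below it. Uqcrc1, the partner core subunit, was the remaining one of 3 genes without overlap (-0.26), where 19.6% of all genes lay lower without overlap. Uqcr10, a small subunit and the most abundant per kilobase at 483 CPM in the CTRL group, had a log2 fold change of -0.09 and overlapping groups.

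In complex IV, 4 of the 17 nuclear members had higher values in the KO group with TMM scaling, while no nuclear member of the other complexes did. With library totals that contrast went: 6 members of complex IV, 8 of complex I, 3 of complex III and 8 of complex V then had higher values. Ndufa4l2, Cox4i2 and Cox6b2 were higher in the KO group under both scalings. Vertebrates carry several complex IV subunits as paired isoforms, with a widespread form and a form restricted to certain tissues. Ndufa4l2, a relative of the complex IV subunit Ndufa4 that is known as a target of hypoxia-inducible factor and as a pericyte gene, lies at chr10:127514967-127517154 on the plus strand. It had 2.93, 3.07 and 2.55 CPM in the CTRL libraries and 20.7, 9.58 and 5.52 CPM in KO 146, 147 and 148. All KO libraries were above all CTRL libraries, with KO 146 the highest (2.85 ± 0.268 against 11.9 ± 7.87 CPM, SD, n = 3 each). The log2 fold change of 2.07 (SE 0.47) had an adjusted p of 0.0755 with edgeR. Ndufa4l2 was called by DESeq2 (adjusted p = 7.39e-05), and by edgeR without KO 146 (1.40, adjusted p = 0.00794) and without KO 148 (2.41, adjusted p = 0.0147). Those fits called 16.4%, 17.2% and 18.3% of all genes. The gene was not called by limma-voom (adjusted p = 0.12), nor by edgeR with any other single library left out.

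Cox4i2, the form of subunit 4 that is known from lung and from low oxygen, had 0.627, 0.788 and 0.7 CPM in the CTRL libraries and 3.05, 1.04 and 1.1 CPM in KO 146, 147 and 148. KO 146 stood well above the other libraries at 180 counts, and KO 147 and KO 148 were above the CTRL range by a small margin at 43 and 50 counts (1.31, SE 0.46, edgeR adjusted p = 0.126). Without KO 146 the log2 fold change was 0.59. The summed CPM of the mesangial, pericyte and smooth muscle markers was likewise highest in KO 146, at 432 to 444 in the CTRL libraries and 2699, 1036 and 731 in KO 146, 147 and 148. With the mean proximal tubule marker level as a covariate, the log2 fold change of Ndufa4l2 was 0.44 and that of Cox4i2 was -0.19, neither called by edgeR (adjusted p = 0.367 and 0.836).

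Cox6b2, known as the testis form of subunit 6b (chr7:4751792-4753094, minus strand), followed another order. It had 4.41, 4.96 and 5.90 CPM in the CTRL libraries and 6.25, 11.6 and 9.62 CPM in KO 146, 147 and 148. Here KO 146 was the lowest of the KO libraries and lay only just above the CTRL range (5.09 ± 0.749 against 9.17 ± 2.72 CPM, SD, n = 3 each). Its log2 fold change was 0.85 (SE 0.25, adjusted p = 0.0894 with edgeR). Without KO 146 it was 1.05, and edgeR called it with an adjusted p of 0.00465, in a fit that called 17.2% of all genes. It was also called with the proximal tubule covariate, at 1.40 (edgeR adjusted p = 0.0276), and by DESeq2 with an adjusted p of 0.0154. The covariate is confounded with the groups, and its fit called 1.7% of all genes. Cox6b2 was not called by limma-voom (adjusted p = 0.137), nor by edgeR with any other single library left out.

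Within each library, the restricted form was set against its widespread partner as a ratio of counts per kilobase. Ndufa4l2 was 0.730%, 0.778% and 0.587% of Ndufa4 in the CTRL libraries and 8.49%, 2.61% and 1.41% in KO 146, 147 and 148. Cox6b2 was 0.681%, 0.754% and 0.771% of Cox6b1 and 1.31%, 1.63% and 1.35%, a narrow range in each group with a gap between them. Cox4i2 was 0.142%, 0.179% and 0.144% of Cox4i1 and 0.942%, 0.226% and 0.241%. The restricted form remained a small fraction of the widespread form in these comparisons, in every library. Of the muscle forms, Cox7a1 was 8.56%, 9.81% and 8.61% of Cox7a2 in the CTRL libraries and 9.85%, 10.002% and 10.6% in KO 146, 147 and 148. These groups did not overlap either, but the gap between them was narrow. Cox6a2 was 0.510% to 0.672% of Cox6a1 in the CTRL libraries and 0.430% to 0.710% in the KO libraries, with overlap. As single genes, Cox6a2 had a log2 fold change of -0.09 and Cox7a1 of 0.01, both with overlapping groups (adjusted p = 0.871 and 0.982 with edgeR). The widespread forms Cox4i1, Cox6a1, Cox6b1, Cox7a2 and Ndufa4 had log2 fold changes of -0.14, -0.14, -0.12, -0.17 and -0.30, and of these Ndufa4 was the one whose groups did not overlap.

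**Figure D3:**
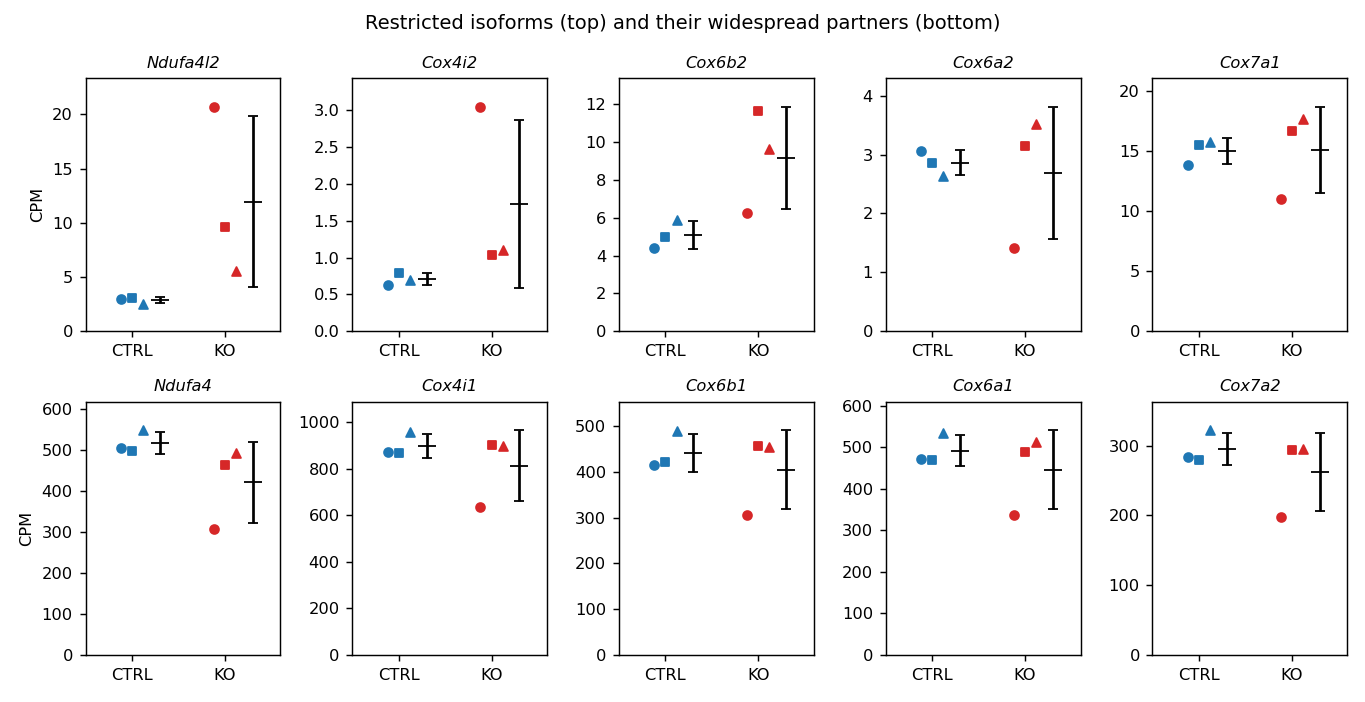
CPM of 5 restricted isoforms (top) and their widespread partners (bottom) in each library, with the group mean and SD in black (n = 3 each, blue CTRL, red KO, each panel with its own axis from 0). Ndufa4l2 and Cox4i2 are highest in KO 146 (20.7 and 3.05 CPM), Cox6b2 is highest in KO 147 (11.6 CPM), and the 5 partners are lowest in KO 146.

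Cox8a and Cox6a1, the nuclear members of the complex most abundant per kilobase (917 and 700 CPM per kilobase in the CTRL group), had log2 fold changes of -0.13 and -0.14. Cox7a2l, which joins complexes III and IV into supercomplexes, had 139, 140 and 146 CPM in the CTRL libraries and 104, 130 and 133 CPM in KO 146, 147 and 148, without overlap (-0.21, edgeR adjusted p = 0.261). Over all 17 nuclear members the median was -0.14, and without KO 146 it was 0.02. DESeq2 called Ndufa4l2, Cox4i2 and Cox6b2 and no other complex IV gene, where it called 16.4% of all genes.

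In complex V, all 17 nuclear members had lower values with TMM scaling, with a median of -0.14 and 0 called by edgeR. With library totals 9 did, and without KO 146, 7 did. Atp5b, the catalytic beta subunit, had 3421, 3076 and 3323 CPM in the CTRL libraries and 2093, 2891 and 3033 CPM in KO 146, 147 and 148. KO 148 lay just below the CTRL range (-0.29, edgeR adjusted p = 0.32). Atp5a1, the alpha subunit, had a log2 fold change of -0.23 with overlapping groups (edgeR adjusted p = 0.401). Per kilobase these 2 stood almost level, at 773 for Atp5b and 774 for Atp5a1 in the CTRL group. Atp5s, a factor associated with the synthase rather than a core subunit (chr12:69724950-69744660, plus strand), had 15.1, 15.5 and 14.1 CPM against 9.51, 10.2 and 12.1 CPM. Its groups were clearly apart (14.9 ± 0.737 against 10.6 ± 1.36 CPM, SD, n = 3 each), and the log2 fold change was -0.49 (SE 0.12, adjusted p = 0.0774 with edgeR). Without KO 146 it was -0.42 and called (edgeR adjusted p = 0.0285), in a fit that called 6.62% of all genes lower. With the mean proximal tubule marker level as a covariate in all libraries, Atp5s had -0.24 and was not called (edgeR adjusted p = 0.45). Atp5g1, Atp5g2 and Atp5g3 encode the same mature c subunit of the rotating ring from separate genes, and had log2 fold changes of -0.07, -0.09 and -0.23. Per kilobase Atp5g1 was 13.2% to 14.9% of Atp5g3 in the CTRL libraries and 14.9% to 16.2% in the KO libraries. Without KO 146 the median of the 17 was 0.02.

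**Figure D4:**
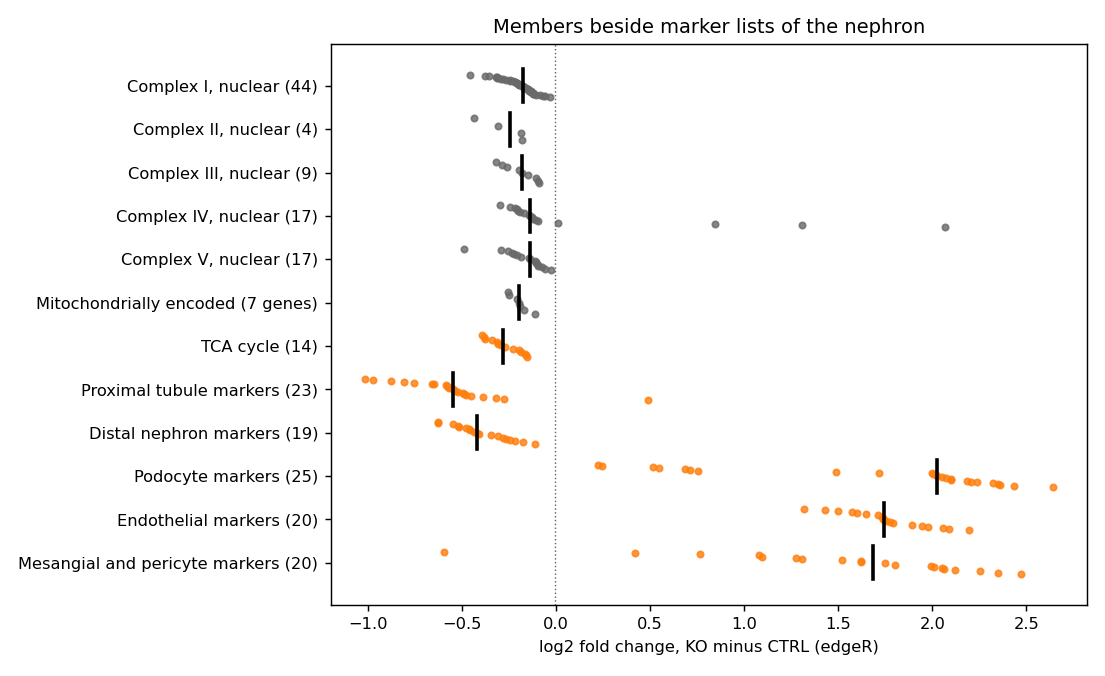
Log2 fold changes, KO minus CTRL, of the members by complex (grey) and of comparison lists (orange), 1 point per gene, with the median of each set as a black bar and the median of all genes as a dotted line. Member medians lie between -0.25 (complex II) and -0.14 (complexes IV and V), between the proximal tubule markers at -0.55 and the podocyte markers at 2.03, and 3 complex IV genes lie to the right.

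When the mean level of proximal tubule markers was entered as a covariate, the members' median log2 fold change went from -0.18 to 0.26, and 91 of 103 members changed sign. By complex the medians were then 0.20 for I, 0.21 for II, 0.24 for III, 0.29 for IV, 0.27 for V and 0.54 for the 12 mitochondrial genes. edgeR called 4 members in that fit, all higher: Cox6b2 (1.40), mt-Nd2 (0.56), mt-Nd6 (0.54) and Atp5k (0.48), the last a small membrane subunit of complex V. The share of all genes called was 1.7%, and 1.33% were called higher. With endothelial and mesangial markers as the covariate, edgeR called the same 4 members again all higher, where it called 1.83% of all genes and 1.45% higher. Each covariate is itself measured in these 6 libraries. The summed proximal tubule markers were at 35920 to 36778 CPM in the CTRL libraries and at 16687 to 28512 CPM in the KO libraries, without overlap. This covariate is thus confounded with the groups, and its fit rests mainly on the spread among the KO libraries. The direction of the members cannot be told apart from the tubule content of the preparations.

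Genes that build, regulate or feed the complexes had a similar direction and median, but more of them were lower at an unadjusted p below 0.05. Of 129 tested genes in 10 lists outside the members, 120 had lower and 9 had higher values in the KO group, with a median log2 fold change of -0.20. edgeR called 0 of the 129, and limma-voom called 0. At an unadjusted p below 0.05 edgeR gave 1 higher and 33 lower, against 17.5% and 11.8% of all genes. The 33 were a larger share of the 129 than that of all genes, whereas the lower share of the members was smaller. The 7 genes that DESeq2 called were all lower, where it called 5.06% of all genes lower. The 17 of the 129 that edgeR called without KO 146 were also all lower, a larger share than the 6.62% of all genes called lower. The medians of the lists ran from -0.29 for complex I assembly factors outside the Nduf symbols and -0.28 for the tricarboxylic acid cycle to -0.08 for complex III assembly and -0.05 for regulators of mitochondrial biogenesis. Ppargc1a, the coactivator that drives mitochondrial biogenesis, had 71.1, 74.9 and 77.3 CPM in the CTRL libraries and 42.1, 63.9 and 72.7 CPM in KO 146, 147 and 148 (-0.32, edgeR adjusted p = 0.303). KO 148 lay within the CTRL range, and KO 146 was far below it. Its partner receptors Esrra and Esrrg had log2 fold changes of -0.26 and -0.40 (adjusted p = 0.316 and 0.213 with edgeR).

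Nrf1, a transcription factor of nuclear respiratory genes, ran the other way, with 15.8, 16.3 and 15.2 CPM in the CTRL libraries and 21.3, 19.7 and 17.4 CPM in KO 146, 147 and 148. Its groups did not overlap (0.31, SE 0.10, edgeR adjusted p = 0.115), and of the 129 genes it was the one with a higher value at an unadjusted p below 0.05. Tfam, which packages mitochondrial DNA and activates its transcription, had a log2 fold change of -0.20 (adjusted p = 0.197 with edgeR). The mitochondrial RNA polymerase Polrmt had -0.20 and the messenger-stabilising factor Lrpprc -0.27 (adjusted p = 0.241 and 0.167 with edgeR). Cycs, the electron carrier cytochrome c, and Cs, citrate synthase, had -0.15 and -0.16 (adjusted p = 0.594 and 0.446 with edgeR).

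Promoters of the nuclear members share sequence elements that the choice by symbol did not use. RefSeq windows on GRCm38.p6, 250 bases before to 50 bases after each gene's start, were matched for 72 of the 91 nuclear members and searched on both strands. Ndufa4l2 and Cox4i2 had no matched window, so the shares below do not cover them. The Nrf1 element GCGCATGCGC occurred in 7 of 72 windows (9.7%), against 0.98% of all 27025 windows. CCGGAAG, the core bound by GABP, occurred in 17 (23.6% against 9.12%), and AAGATGGCG, an element of YY1, in 7 (9.7% against 1.49%). TCAAGGTCA, an element of estrogen-related receptors, occurred in 2 (2.8% against 0.41%), and the cyclic AMP element TGACGTCA in 4 (5.6% against 1.88%). ACGTG, the core bound by hypoxia-inducible factor, was found in 22.2% of member windows and 19.7% of all windows. None of these words contains another, but CCGGAAG and AAGATGGCG can overlap in their shared AAG, which happened in 0 of the member windows and 0 of all windows. The windows holding the Nrf1 element belonged to Atp5g2, Atp5k, Cox6a1, Ndufa11, Ndufaf4, Ndufaf5 and Uqcrc1.

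The 250 bases before the start are printed for 5 members, 5′ to 3′ on the gene's own strand, with matches to the Nrf1, GABP, YY1, estrogen-related receptor or cyclic AMP words in capitals. Cox6a1 (chr5:115348959-115349208) and Atp5k (chr5:108434400-108434649) show the Nrf1 element, and Sdhd (chr9:50603850-50604099), a gene of the complex with the lowest median, shows GABP alone within the printed bases. Cox6b1 (chr7:30626115-30626364) and Cox6b2 (chr7:4753095-4753344) are the widespread and restricted forms of one subunit, and all 5 lie on the minus strand.
Cox6a1: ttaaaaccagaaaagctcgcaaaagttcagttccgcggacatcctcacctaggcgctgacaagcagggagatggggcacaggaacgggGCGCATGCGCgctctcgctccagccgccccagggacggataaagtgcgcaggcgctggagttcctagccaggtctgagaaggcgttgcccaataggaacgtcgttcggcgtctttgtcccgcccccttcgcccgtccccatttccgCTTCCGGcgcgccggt
Atp5k: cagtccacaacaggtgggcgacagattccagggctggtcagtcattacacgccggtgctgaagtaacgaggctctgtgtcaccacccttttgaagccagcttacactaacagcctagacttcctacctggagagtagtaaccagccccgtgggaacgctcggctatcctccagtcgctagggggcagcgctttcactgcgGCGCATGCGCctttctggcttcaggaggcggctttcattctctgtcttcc
Sdhd: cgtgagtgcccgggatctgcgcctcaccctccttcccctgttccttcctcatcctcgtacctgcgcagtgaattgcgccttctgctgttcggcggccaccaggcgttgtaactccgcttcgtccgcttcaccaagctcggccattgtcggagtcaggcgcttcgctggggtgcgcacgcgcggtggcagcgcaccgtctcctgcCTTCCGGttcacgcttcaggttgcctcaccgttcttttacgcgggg
Cox6b1: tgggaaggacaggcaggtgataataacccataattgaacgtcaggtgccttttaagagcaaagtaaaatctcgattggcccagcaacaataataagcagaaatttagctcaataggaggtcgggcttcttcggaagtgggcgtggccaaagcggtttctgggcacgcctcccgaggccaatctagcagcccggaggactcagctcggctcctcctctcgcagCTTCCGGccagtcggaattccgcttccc
Cox6b2: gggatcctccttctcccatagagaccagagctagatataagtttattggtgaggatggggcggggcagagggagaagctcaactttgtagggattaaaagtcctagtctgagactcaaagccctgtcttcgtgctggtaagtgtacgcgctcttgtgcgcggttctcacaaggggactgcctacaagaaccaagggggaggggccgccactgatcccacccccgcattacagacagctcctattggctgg
The reverse complement CTTCCGG of the GABP core stands toward the 3′ end of the stretch in Cox6a1, Sdhd and Cox6b1. The restricted form Cox6b2 held none of these words in the printed bases, which says only that these letters are not in this window. A match to a word is a description of sequence, and binding was not measured.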

How the data were processed

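Total RNA of isolated glomeruli was sequenced in 6 libraries of 3-week-old mice, 3 labelled CTRL and 3 labelled KO. Each library has 1 file, in which the authors deposited counts of reads for each gene, not normalised. The tools named are STAR 2.6.0, HTSeq 0.11.1, fastp 0.19.5 and DESeq2 (no version), per the submitters' processing notes, which give no roles. The notes list GRCh37, a human build, although the gene identifiers are those of mouse, and the true alignment build is unknown. Annotation and strand setting are not stated in the sources used here, and reads of overlapping genes on opposite strands could not be told apart.

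Gene names and positions were taken by identifier from GENCODE M21 on GRCm38, which matched 54723 of 54838. The 5 closing lines of each file name no gene and were left out of library sizes. They held, of all records, 22.5% to 29.6% aligned to more than 1 place, 2.57% to 3.41% in no feature, 1.55% to 1.79% ambiguous, 0.699% to 1.22% unaligned and 0.127% to 0.151% of low quality. Depth of 39841396 to 51917945 gene counts makes counting error small for abundant members and large for those with few counts.

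Counts were tested in R 4.3.3 with edgeR 4.0.16: TMM, the filterByExpr filter at a minimum count of 10, the robust quasi-likelihood test of KO against CTRL, and Benjamini-Hochberg adjustment over all tested genes. The procedure was tested on simulated data. SE is the size of the log2 fold change over the square root of F. CPM uses TMM library sizes, and levels per kilobase use the summed exon length of a gene. Alternatives were DESeq2 1.42.0, limma-voom (limma 3.58.1), other scalings and filters, marker levels as covariates (mean log2 CPM, prior count 2), and each library left out. Limiting the mitochondrial median to 7 well-counted genes was added after seeing the data. The members, gene lists and tests were chosen with earlier results of these data known. The named genes were set by rule: all mitochondrial genes, the Sdh genes, 2 members per other complex by smallest p and 2 by level per kilobase, the isoforms, the members at the count minimum, and Ppargc1a, Tfam, Esrra, Esrrg, Nrf1, Polrmt, Lrpprc, Cycs and Cs. Other genes named were chosen after their values were seen. Some results of a member counted in the totals are not reported here.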

Additional observations from a re-analysis of the deposited data

How the results depend on the processing

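No member was called by edgeR with RLE factors, library totals, scaling without mitochondrial genes, a filter of 10 counts in 3 libraries or the non-robust fit. Of all genes, edgeR called 173, 960 without a count filter, 291 with the proximal tubule covariate and 313 with the endothelial and mesangial covariate, and DESeq2 called 2871. Of the members, those settings called 0, then 2 without a filter (Cox6b2 and Ndufaf7), 4 and 4 with the covariates and 6 by DESeq2. With 1 library left out, edgeR called 2 to 3211 of all genes and 0 to 5 members: 5 without KO 146 (Ndufa4l2, Cox6b2, Atp5s, Ndufaf7 and Sdha) and 4 without KO 148 (Ndufa4l2, Atp5s, Ndufaf1 and Ndufaf7). Medians moved to positive values with the proximal tubule and the endothelial and mesangial covariates: 0.203 and 0.231 for nuclear complex I, 0.205 and 0.235 for II, 0.238 and 0.269 for III, 0.294 and 0.316 for IV, 0.268 and 0.302 for V, 0.536 and 0.569 for the mitochondrial genes, and 0.262 and 0.288 over all members. With the same covariates mt-Nd2 was 0.556 and 0.597 and mt-Nd6 0.537 and 0.575, called and opposite in sign to the values without them, and the cause was not tested. Restricting the mitochondrial median to the 7 well-counted genes, a choice made after seeing the data, gave -0.195. No paired analysis was possible because the groups share no replicate numbers. Low counts limit Cox4i2 and the stretch from mt-Co2 to mt-Nd4l.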

Other observations

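Some mitochondrial transcripts outside the membership rule, chosen after their values were seen, could be set beside the members. The small ribosomal RNA mt-Rnr1 had 2973, 2462 and 2765 CPM in the CTRL libraries and 1815, 3281 and 3321 CPM in KO 146, 147 and 148, with a log2 fold change of 0.04 (edgeR adjusted p = 0.933). The large ribosomal RNA mt-Rnr2 had a log2 fold change of 0.01 (edgeR adjusted p = 0.983). As with the coding genes, KO 146 was the lowest library for both, while KO 148 lay above every CTRL library. The proline transfer RNA mt-Tp had a log2 fold change of -0.24 with overlapping groups (edgeR adjusted p = 0.507).

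Ndufb1-ps, whose symbol begins like a complex I subunit but which the annotation types as a non-coding RNA, was left out by the rule. It had 60.8, 62.3 and 72.8 CPM in the CTRL libraries and 43.1, 59.6 and 61.0 CPM in KO 146, 147 and 148. KO 148 lay within the CTRL range and KO 146 below it, the order seen for most nuclear members (-0.26, edgeR adjusted p = 0.297).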
